A study of Mus musculus with 12 samples.

Results

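The 38 genes described here are the cell cycle and proliferation genes of mouse liver, taken by name from a list of G1 cyclins, origin licensing factors, DNA synthesis enzymes, mitotic kinases and spindle proteins, out of 20886 genes named on an Agilent one-colour array. All 38 had at least 1 probe, and together they had 50 of the 39429 probes tested. The livers came from 12 female C57BL/6N mice, 3 in each of 4 diet groups of 20 mice, which arrived at 6 weeks of age and acclimated for 2 weeks before 6 months of feeding. All groups ate a normal formula diet. Ctrl mice received it with corn starch and sucrose as the carbohydrate, and RS mice received the same food with resveratrol, a plant stilbene, mixed in. In the DJ diet the starch and sucrose gave way to Dongjin rice, and in the DJ526 diet to the transgenic rice DJ526, a Dongjin line that makes resveratrol through a peanut stilbene synthase. DJ is therefore the rice control for DJ526, and Ctrl is the control for RS. Mice lived 10 to a cage. The methods speak both of cages assigned to groups and of mice divided at random, and the cage of each liver was not used here. A supplementary sample list of the study gave the RS and DJ array identifiers the other way round. The sample labels were followed here, and an exchange would swap every RS and DJ value below.

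Cells that divide pass from G1, in which cyclin D and cyclin E prepare replication, through S phase, in which licensed MCM helicases and nucleotide enzymes duplicate the genome, into G2 and M, which cyclin B with Cdk1 starts and the anaphase-promoting complex ends. Most hepatocytes of an adult liver are quiescent, so mRNAs of the mitotic machinery are scarce in whole liver and come from any cell type in cycle, including immune cells. Many of these genes are kept silent in resting cells by repressor complexes at E2F sites and CHR elements of their promoters. They are released together in dividing cells, and the CHR elements are often paired with CCAAT boxes.

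Signal is given as log2 of a probe's background-subtracted intensity relative to the 75th percentile of its array, so a value of 0 equals that percentile and 1 unit is a factor of 2. Each gene is represented by its brightest probe, and levels of different genes are not set against each other. On the 12 arrays between 73.0% and 80.8% of the probe spots were well above background, which is the scanner software's call of detection, and no spot was saturated. With 3 livers a group the number of arrays limits the precision. All 8 hepatocyte markers, Alb and Ttr among them, were detected in each of the 12 livers. The 12 arrays sat on 3 slides: the first held the 3 Ctrl livers and DJ replicate 1, the second DJ replicates 2 and 3 with RS replicates 1 and 2, and the third RS replicate 3 with the 3 DJ526 livers. Slide and diet are therefore largely confounded, and DJ replicate 1 alone links the Ctrl livers to the other slides. Likewise, RS replicate 3 alone links the DJ526 livers to the other slides.

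Of the 38 genes, 31 were well above background on all 12 arrays. Top2a was detected on 11 arrays, Kif11 on 10, Cdc6 on 8 and Bub1 on 4. Aurkb, Ccne2 and Cenpf were not well above background on any array and have only an upper bound. Over the 31 detected genes the range from the lowest to the highest liver ran from 0.51 to 2.62 log2 units with a median of 1.44, beside a median of 0.66 over all probes detected on every array. The range of a gene's 4 diet means had a median of 0.39 and a largest value of 0.76, beside a median pooled SD within diets of 0.48. In 14 of the 31 genes the range of the diet means was above the pooled SD, and in the others it was not. The means of 4 diets with 3 livers each can spread this far without any effect of diet, so this count does not measure one. In whole liver RNA, more cells in cycle and more RNA per cell cannot be told apart.

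**Figure D1:**
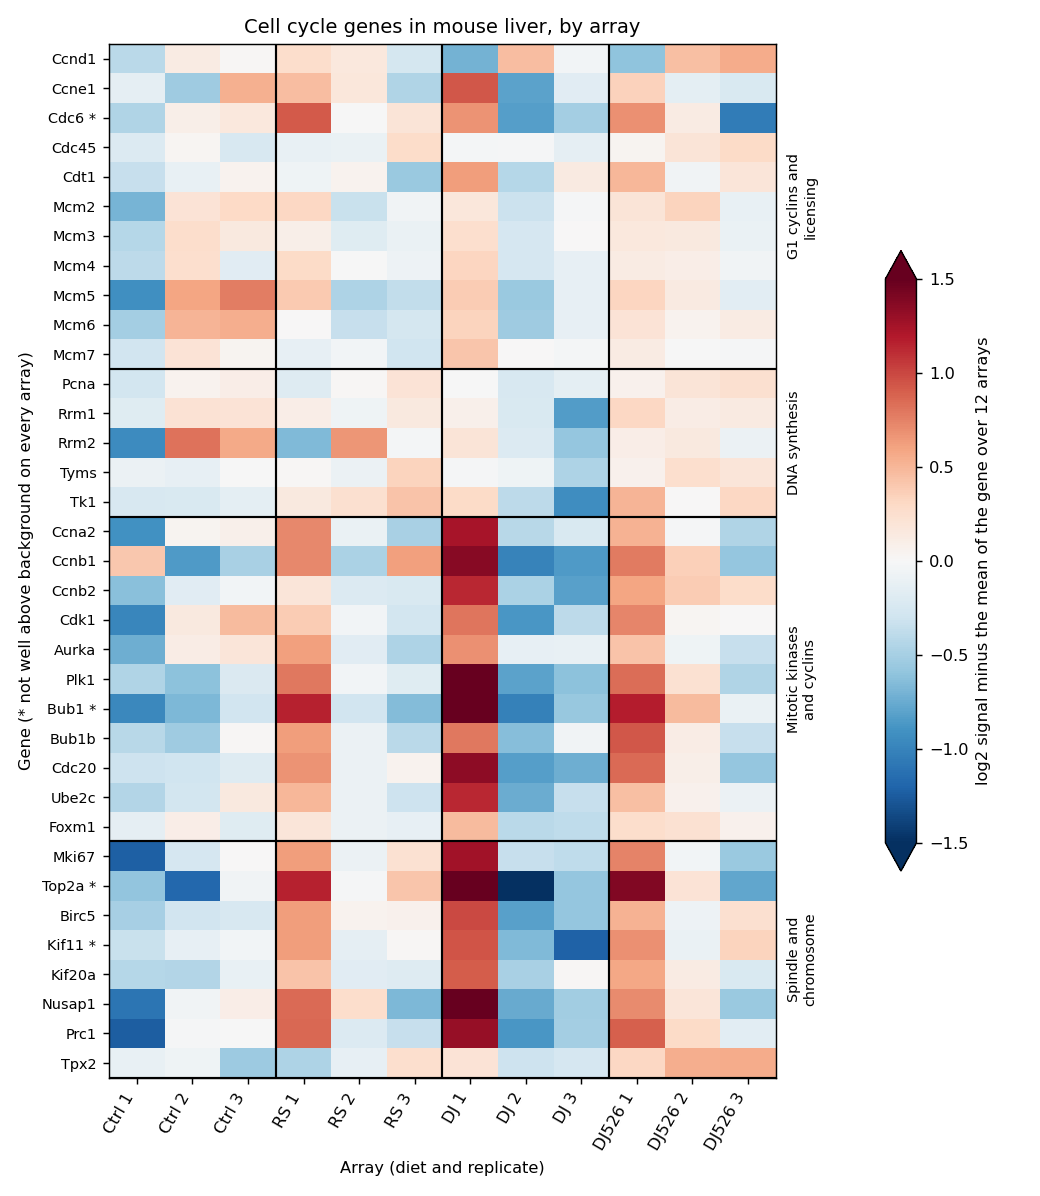
The 35 cell cycle genes detected on at least 1 array (rows, grouped by role) in the 12 livers (columns, by diet and replicate), coloured by log2 signal minus the gene's mean over the 12 arrays; an asterisk marks genes not well above background on every array. The columns of RS replicate 1, DJ replicate 1 and DJ526 replicate 1 are red through most mitotic and spindle genes, and those of Ctrl replicate 1 and DJ replicate 2 are blue.

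Among the G1 cyclins and licensing factors, Ccnd1, the cyclin D1 that couples growth signals to G1 progression, lay at 2.37, 2.90 and 2.79 in Ctrl, at 3.04, 2.94 and 2.52 in RS, at 2.07, 3.24 and 2.73 in DJ, and at 2.17, 3.22 and 3.33 in DJ526 (replicates 1 to 3 in each case, as below). Its diet means lay between 2.68 ± 0.59 for DJ and 2.91 ± 0.64 for DJ526 (SD, n = 3 each), and all 4 diets overlapped. Ccnd1 was lowest in DJ replicate 1 and DJ526 replicate 1, livers in which mitotic genes were high. In RS replicate 1, where mitotic genes were high too, Ccnd1 was the highest of its diet. In Ctrl replicate 1, where they were low, Ccnd1 was the lowest of its diet. Mcm2, a subunit of the replicative helicase, gave -3.07, -2.16 and -2.07 in Ctrl, -2.05, -2.70 and -2.42 in RS, -2.20, -2.69 and -2.39 in DJ, and -2.18, -2.03 and -2.48 in DJ526. Its lowest liver was Ctrl replicate 1, and no pair of diets separated. Mcm5, another helicase subunit, showed the same low Ctrl liver, with -2.78, -1.28 and -1.10 in Ctrl against -1.46, -2.32 and -2.23 in RS, -1.49, -2.42 and -1.99 in DJ, and -1.53, -1.73 and -2.02 in DJ526. Cdc45, which activates the helicase at origins, varied little (range 0.52), and its 3 DJ526 livers, at -3.50, -3.35 and -3.26, lay above the 3 Ctrl livers, at -3.75, -3.51 and -3.78.

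The DNA synthesis genes followed another order of livers. Pcna, the sliding clamp of DNA polymerase and the detected gene with the smallest range (0.51), was measured at 2.08, 2.41 and 2.46 in Ctrl, 2.17, 2.38 and 2.56 in RS, 2.36, 2.12 and 2.22 in DJ, and 2.43, 2.55 and 2.60 in DJ526. The 3 DJ526 livers lay above the 3 DJ livers, with means of 2.53 ± 0.09 and 2.23 ± 0.12 (SD, n = 3 each), and overlapped Ctrl and RS. Tk1, the thymidine salvage kinase of S phase, gave 2.78, 2.79 and 2.87 in Ctrl, 3.17, 3.25 and 3.45 in RS, 3.30, 2.62 and 2.09 in DJ, and 3.53, 3.03 and 3.33 in DJ526. Both diets with resveratrol lay above every Ctrl liver for Tk1, at means of 3.29 ± 0.15 in RS and 3.30 ± 0.25 in DJ526 against 2.81 ± 0.05 in Ctrl (SD, n = 3 each), while the DJ livers ran from below Ctrl into the range of RS and DJ526. Rrm1, the large subunit of ribonucleotide reductase, was lowest on average in DJ, at -0.49, -0.80 and -1.41, beside -0.25, -0.45 and -0.43 in DJ526. Tyms, thymidylate synthase, gave -3.35, -3.40 and -3.79 in DJ and -3.27, -3.09 and -3.15 in DJ526, again without overlap. Rrm2, the small reductase subunit, ranged from -0.75 in Ctrl replicate 1 to 1.00 in Ctrl replicate 2, so that its Ctrl livers alone spanned every other diet.

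Among the mitotic cyclins and kinases, Ccna2, cyclin A2 of S phase and G2, gave -4.52, -3.56 and -3.53 in Ctrl, -2.89, -3.71 and -4.09 in RS, -2.37, -4.02 and -3.83 in DJ, and -3.09, -3.63 and -4.06 in DJ526. In RS, DJ and DJ526 replicate 1 was the highest of its diet, and in Ctrl replicate 1 was the lowest. Replicate numbers name mice and carry no order. Ccnb1, cyclin B1, which activates Cdk1 at mitotic entry, gave -4.01, -5.27 and -4.90 in Ctrl, -3.70, -4.89 and -3.80 in RS, -3.05, -5.42 and -5.27 in DJ, and -3.63, -4.05 and -4.99 in DJ526. Cdk1, the mitotic kinase itself, gave -4.96, -3.84 and -3.50 in Ctrl, -3.60, -4.02 and -4.25 in RS, -3.18, -4.86 and -4.37 in DJ, and -3.25, -3.96 and -3.98 in DJ526. Foxm1, a transcription factor of G2 and M genes, moved over a narrower span, at -4.32, -4.09 and -4.37 in Ctrl, -4.01, -4.27 and -4.30 in RS, -3.71, -4.59 and -4.56 in DJ, and -3.92, -3.96 and -4.12 in DJ526. For Ccna2, Ccnb1, Cdk1 and Foxm1 DJ replicate 1 was the highest of the 12 livers, and all diets overlapped in every pairwise comparison.

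Plk1, a polo kinase of spindle assembly, gave -3.47, -3.63 and -3.23 in Ctrl and -2.22, -3.06 and -3.20 in RS. Its RS livers lay just above its Ctrl livers, as did those of Cdc20, an activator of the anaphase-promoting complex, at -1.99, -2.75 and -2.61 in RS against -2.97, -2.96 and -2.86 in Ctrl. Ccnb2, cyclin B2, gave -1.35, -1.55 and -1.66 in DJ526, above -2.57, -2.11 and -1.98 in Ctrl and above -1.75, -2.14 and -2.17 in RS, while the DJ livers ran from -2.75 to -0.80. Bub1, a spindle checkpoint kinase, was not well above background in any Ctrl liver. It was in 1 RS, 1 DJ and 2 DJ526 livers, and its highest value, -5.24, was in DJ replicate 1.

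Of the spindle and chromosome genes, Mki67, which encodes the proliferation antigen Ki-67 of the mitotic chromosome surface, gave -2.52, -1.55 and -1.28 in Ctrl, -0.66, -1.37 and -1.06 in RS, -0.03, -1.63 and -1.67 in DJ, and -0.55, -1.33 and -1.84 in DJ526. Its diet means ran from -1.78 ± 0.65 in Ctrl to -1.03 ± 0.36 in RS (SD, n = 3 each), the DJ and DJ526 means lay between at -1.11 ± 0.94 and -1.24 ± 0.65, and no pair of diets was free of overlap. Birc5, survivin of the chromosomal passenger complex, gave -1.46, -1.26 and -1.21 in Ctrl, -0.34, -0.92 and -0.90 in RS, 0.02, -1.78 and -1.54 in DJ, and -0.44, -1.05 and -0.73 in DJ526. RS and DJ526 livers lay above all Ctrl livers for Birc5, and the DJ livers held both its highest and its lowest values. Top2a, the topoisomerase that untangles sister chromatids, gave -5.61, -6.19 and -5.07 in Ctrl, -3.86, -5.04 and -4.60 in RS, -3.25, -6.74 and -5.60 in DJ, and -3.63, -4.81 and -5.80 in DJ526. It was not well above background in 1 DJ liver, and its RS livers lay above its Ctrl livers. Prc1, a bundler of midzone microtubules, gave -5.08, -3.86 and -3.85 in Ctrl, -2.98, -4.04 and -4.20 in RS, -2.54, -4.72 and -4.36 in DJ, and -2.95, -3.56 and -4.00 in DJ526, a 5.82-fold range. Nusap1, a spindle protein, had the widest range of the 31 genes, 6.16-fold.

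**Figure D2:**
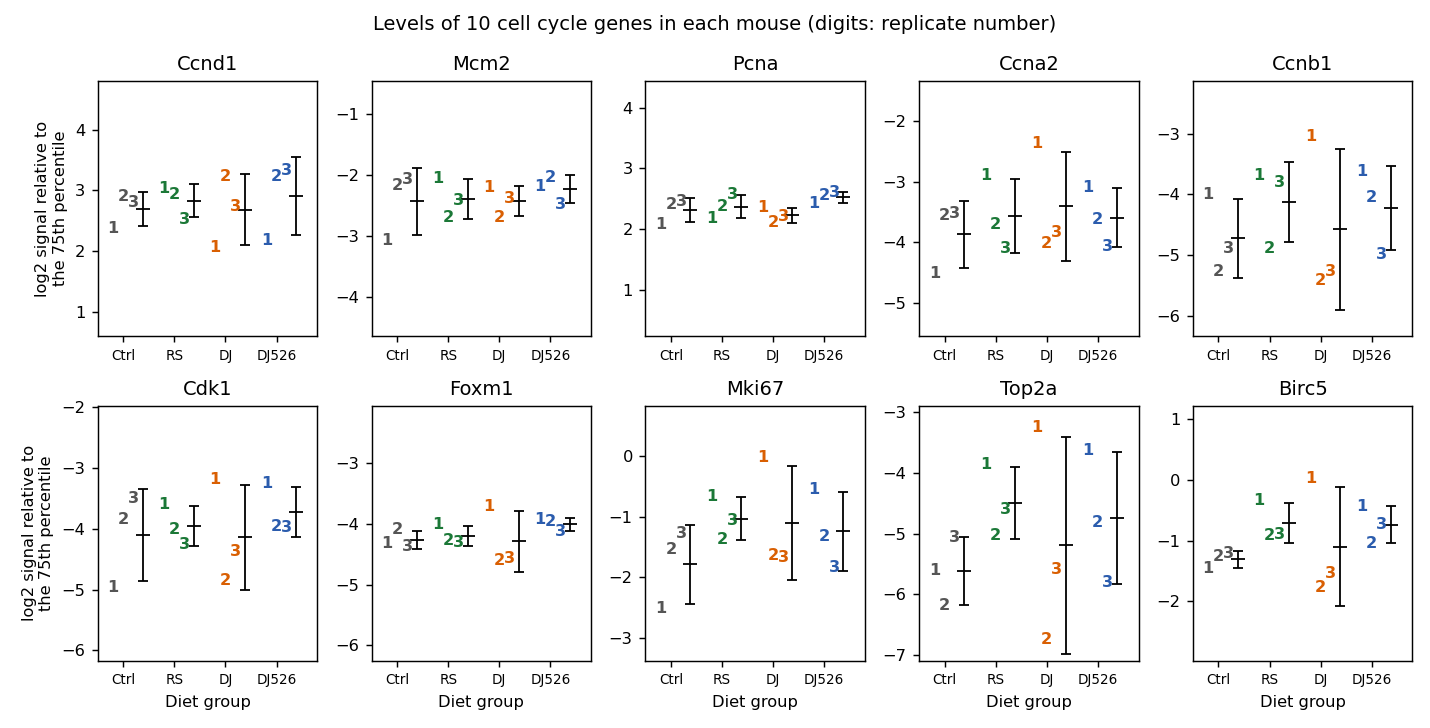
Log2 signal relative to the 75th percentile of the array for 10 cell cycle genes in each liver (digits give the replicate), with the mean and SD of the 3 livers of each diet as a bar to the right. Ccna2, Cdk1, Mki67, Top2a and Birc5 spread widely within DJ, where replicate 1 is highest, and Pcna and Foxm1 spread least.

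For the comparison of RS with Ctrl, which asks what resveratrol in the food did, limma called 0 of the 38 genes at an adjusted p of 0.05, where 0.0% of all probes tested were called. At an unadjusted p under 0.05 there were also 0 of 38, beside 6.0% of all probes. The estimates were positive for 31 of 38 genes, beside 55.4% of all probes, with a median log2 fold change of 0.21 against 0.026 over all probes. Top2a was at 1.12 (SE 0.794, adjusted p = 0.93), Mki67 at 0.75 (SE 0.480, adjusted p = 0.925) and Ccnb1 at 0.59 (SE 0.626, adjusted p = 0.979). Plk1 at 0.62 (SE 0.545, adjusted p = 0.958), Birc5 at 0.59 (SE 0.384, adjusted p = 0.926) and Cdc20 at 0.48 (SE 0.523, adjusted p = 0.981) were, with Top2a and Tk1, the detected genes whose RS and Ctrl livers did not overlap. The smallest adjusted p of the list was 0.863, for Tk1 (0.48, SE 0.240). All 3 RS livers lay above all 3 Ctrl livers for 7 genes and below for 0, beside 5.84% and 4.32% of all probes, and 2 of the 7, Ccne2 and Aurkb, were not well above background on any array. By role the median was 0.52 for the spindle genes, 0.33 for the mitotic kinases and cyclins, 0.07 for licensing and 0.06 for DNA synthesis.

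DJ against Ctrl sets rice in place of starch and sucrose. Here 0 of 38 genes were called (0.0% of all probes) and 0 of 38 had an unadjusted p under 0.05 (5.25% of all probes). Estimates were positive for 26 of 38 genes, beside 46.1% of all probes, with a median of 0.14 against -0.018. This median rested on 1 mouse: without DJ replicate 1 it was -0.23 and 8 of 38 genes were positive. On the first slide, which holds that mouse and the 3 Ctrl livers, it lay above the Ctrl mean for 35 genes and below for 3, with a median difference of 0.88, 1.76 for Mki67 and 1.72 for Prc1. No gene separated the 2 diets in either direction, beside 4.4% of all probes higher and 4.99% lower.

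DJ526 against Ctrl gave 0 of 38 genes called, beside 0.00507% of all probes, and 1 of 38 at an unadjusted p under 0.05, a higher one, beside 10.8% of probes in either direction and 6.37% higher. The median of 0.32 was the highest of the 7 comparisons made, against 0.018 over all probes, and 33 of 38 estimates were positive, beside 52.8% of all probes. Tpx2, which targets spindle kinases and nucleates microtubules, had the smallest p, at 0.71 (SE 0.222, unadjusted p = 0.00836, adjusted p = 0.287), with -4.07, -4.02 and -4.50 in Ctrl and -3.64, -3.40 and -3.40 in DJ526. The criterion of the study's methods joins a Z ratio over 1.5, an unadjusted p under 0.05 and an average intensity above 0. Applied here without the intensity condition, it picked Tpx2 alone of the 38 genes, beside 3.87% of all probes. A second Tpx2 probe did not show this separation, as described below. Ccnb2 was at 0.70 (SE 0.399, adjusted p = 0.552), Birc5 at 0.57 (SE 0.384, adjusted p = 0.614), Tk1 at 0.49 (SE 0.240, adjusted p = 0.495) and Cdc45 at 0.31 (SE 0.149, adjusted p = 0.48), all 4 with DJ526 livers above every Ctrl liver. In all, 7 genes separated upward and 0 downward, beside 12.4% and 8.34% of all probes, and Bub1, not detected in Ctrl, was 1 of the 7. The RS, DJ and DJ526 comparisons share the same 3 Ctrl livers, so a low Ctrl liver enters all of them. Ctrl replicate 1 was the lowest of the 12 livers in 12 of the 31 detected genes, beside 8.25% of all probes, and without it the DJ526 median was 0.19 and the RS median 0.12.

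For DJ526 against DJ, the resveratrol rice against its parent rice, 0 of 38 genes were called, beside 0.0101% of all probes, and 4 had an unadjusted p under 0.05, all of them higher, beside 9.84% of all probes in either direction and 5.63% higher. These were Tpx2 (0.59, SE 0.222), Tk1 (0.63, SE 0.240), Rrm1 (0.52, SE 0.20) and Pcna (0.30, SE 0.121), with adjusted p values from 0.457 to 0.475. Tk1, Rrm1 and Pcna are DNA synthesis genes, all 5 of which had positive estimates with a median of 0.35, beside 0.041 over all probes. Separation of the 3 livers from the 3 was seen upward in 5 genes and downward in 0, beside 12.2% and 6.28% of all probes, and Tyms was among them (0.35, SE 0.158, adjusted p = 0.508). Over the 38 genes the median was 0.20 with 33 positive, beside 56.2% of all probes. It ran from -0.05 without DJ replicate 2 to 0.49 without DJ replicate 1, and 0 genes were called in either fit.

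DJ526 against RS set the 2 sources of resveratrol side by side on different carbohydrates. Here 0 of 38 genes were called, beside 0.00761% of all probes, and 1, Tpx2, had an unadjusted p under 0.05, beside 5.51% in either direction and 2.43% higher. Tpx2 was at 0.58 (SE 0.222, adjusted p = 0.782) and Ccnb2 at 0.50 (SE 0.399, adjusted p = 0.986), and Tpx2 was again the 1 gene past the Z ratio criterion, beside 2.04% of all probes. The median of 0.10, against 0.00083 over all probes, came with 25 positive estimates, beside 50.2% of all probes, and was -0.04 without DJ526 replicate 1. DJ526 livers separated from RS livers upward in 4 genes and downward in 1, Aurkb, which was not well above background in any liver, beside 5.14% and 5.93% of all probes. On the slide with 3 DJ526 livers and 1 RS liver, the difference for Tpx2 was 0.22 and the median of the 38 genes 0.26.

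DJ against RS gave 0 of 38 genes called (0.0% of all probes), a median of -0.09 against -0.045, and 9 positive estimates of 38, beside 40.7% of all probes. Tk1 was the 1 gene with an unadjusted p under 0.05, beside 3.53% of all probes in either direction and 2.25% lower (-0.62, SE 0.240, adjusted p = 1). All 3 DJ livers lay above all 3 RS livers for 1 gene, Mcm7 (0.29, SE 0.144), and below for 0, beside 2.44% and 3.93% of all probes. On the second slide, where DJ replicates 2 and 3 met RS replicates 1 and 2, the median was -0.62 and 35 of 38 genes were lower in DJ, among them Prc1 at -1.03, Tk1 at -0.85 and Cdk1 at -0.81. The difference between the 2 resveratrol effects, DJ526 minus DJ less RS minus Ctrl, had a median of -0.09 against 0.012, with 18 positive of 38 beside 51.5% of all probes. No gene was called for it (0.0% of all probes) and none of the 38 had an unadjusted p under 0.05 (6.14% of all probes). Its largest role differences were 0.24 for DNA synthesis and -0.34 for the spindle genes, and the smallest adjusted p was 0.859, for Rrm1 (0.54, SE 0.283). DJ526 minus DJ also holds any other difference between the transgenic rice and its parent line.

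**Figure D3:**
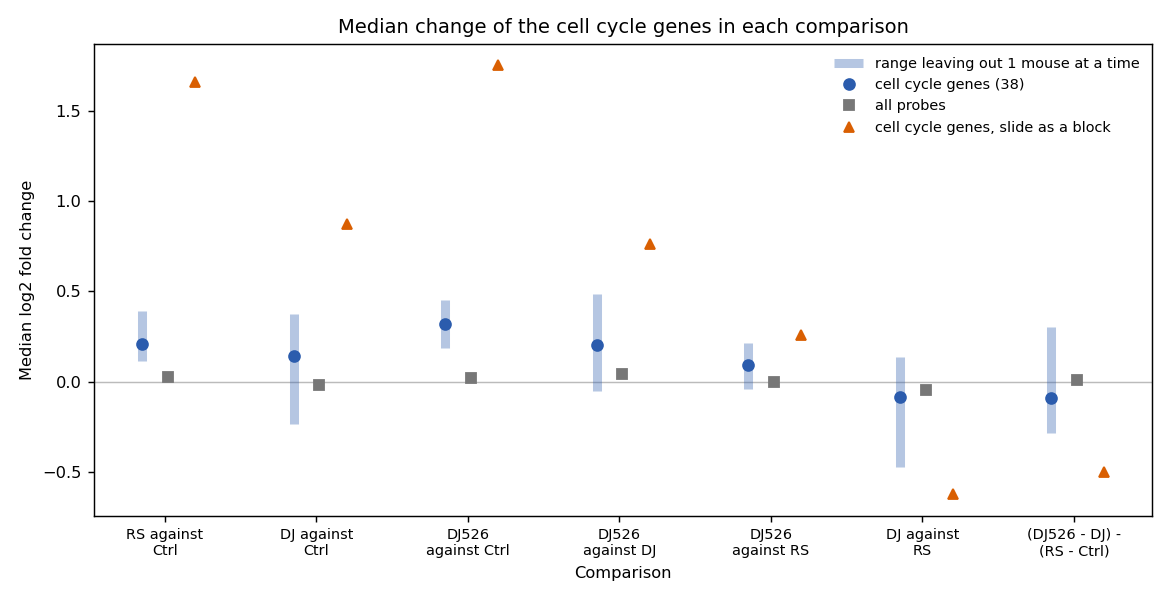
Median log2 fold change of the 38 cell cycle genes in each of the 7 comparisons (circles), with its range when 1 mouse at a time was left out (bars), beside the median of all probes (squares) and the cell cycle median with the slide as a block (triangles). The circles lie between -0.09 and 0.32, and the triangles between -0.62 and 1.75.

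With the slide as a block the medians were 1.66 for RS, 0.88 for DJ and 1.75 for DJ526, each against Ctrl, and 0 of 38 genes were called in any comparison. At an unadjusted p under 0.05 that fit placed 23, 19 and 24 of 38 genes higher in RS, DJ and DJ526 than in Ctrl, beside 5.44%, 5.21% and 5.01% of all probes. It placed 11 higher in DJ526 than in DJ (2.39% of probes), 2 higher in DJ526 than in RS (1.68%) and 13 lower in DJ than in RS (2.48%). It also gave 6 genes a negative difference between the resveratrol effects (4.52%). In DJ526 against Ctrl it moved Ccnb2 to 2.70, Birc5 to 2.52 and Tk1 to 1.19, and Cdc45 turned to -0.02. In RS against Ctrl it gave 4.10 for Top2a, 3.01 for Plk1, 2.69 for Cdc20, 2.37 for Birc5 and 1.34 for Tk1. In DJ526 against DJ its values were 0.07 for Pcna, 0.07 for Tyms and 0.21 for Tpx2, but 0.60 for Rrm1. The median of the DNA synthesis genes in that comparison was 0.47. Tpx2 was at 0.22 in DJ526 against RS. In that fit every contrast with Ctrl is estimated through DJ replicate 1, the liver with the highest cell cycle levels. For DJ against Ctrl the median equals that liver's difference from its slide mates. Every contrast with DJ526 is likewise estimated through RS replicate 3. For DJ526 against RS the median, 0.26, equals the difference of the DJ526 livers from that single RS liver. An effect of the slide and the level of either linking mouse cannot be told apart.

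The other genes of the pathway, from lists of 44 further replication genes, 62 further mitotic genes and 37 regulators, also gave 0 calls in all 7 comparisons. Of these 44, 60 and 36 were on the array. The further mitotic genes had medians of 0.16, 0.11 and 0.24 in RS, DJ and DJ526 against Ctrl, while the replication genes stayed between -0.05 and 0.06 and the regulators between -0.03 and 0.05 over all 7 comparisons. Gmnn, geminin, which blocks relicensing of origins, had the smallest adjusted p among the replication genes, with 0.46 in DJ526 against Ctrl (SE 0.099, adjusted p = 0.145) and 0.38 against DJ (adjusted p = 0.261). Cenpm, a centromere protein, ran the other way between the rices, at -1.05 in DJ526 against DJ (SE 0.219, adjusted p = 0.176) and 0.87 in DJ against Ctrl (adjusted p = 0.68). Wee1, the kinase that holds Cdk1 inactive, was at 0.96 in DJ526 against DJ (SE 0.315, adjusted p = 0.402).

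The cell cycle genes varied together from mouse to mouse. The median deviation of the 31 detected genes from their own means was -0.43, -0.01 and 0.02 in Ctrl, 0.32, -0.08 and -0.18 in RS, 0.63, -0.42 and -0.25 in DJ, and 0.42, 0.12 and -0.08 in DJ526. DJ replicate 1 was the highest of all 12 livers in 18 of 31 genes, beside 10.6% of all probes detected on every array. It lay above both other DJ livers in 29 of 31 genes, beside 40% of those probes, and at least 1 log2 unit above both in 12, beside 1.89%. DJ replicate 2 was the lowest of the 12 in 10 of 31 genes, beside 5.44% of probes. So mice of 1 diet stood near both ends of the list.

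The shared pattern was widest in the mitotic kinases, cyclins and spindle genes, which make up 10 and 6 of the 31 genes behind the median. The 10 detected mitotic kinases and cyclins had a median deviation of -0.44, -0.23 and -0.01 in Ctrl, 0.62, -0.09 and -0.25 in RS, 1.14, -0.69 and -0.38 in DJ, and 0.66, 0.10 and -0.34 in DJ526. The 6 detected spindle genes gave nearly the same series, from -0.79 in Ctrl replicate 1 to 1.13 in DJ replicate 1, with 0.63 in RS replicate 1 and 0.65 in DJ526 replicate 1. Across the 12 livers the median Pearson r between pairs of genes was 0.82 within the kinases and cyclins and 0.84 within the spindle genes, beside 0.46 within the licensing factors, 0.59 within the DNA synthesis genes and -0.00 over all named genes. Without DJ replicate 1 these were 0.73, 0.74, 0.39 and 0.60, and without the 2 livers farthest from the median, DJ replicate 1 and DJ526 replicate 1, they were 0.66, 0.66, 0.41 and 0.60, both choices made after the values were seen. These correlations describe 12 arrays that share their scaling and slides. Against the median of the other detected genes, Prc1 had r = 0.99, Nusap1 and Ube2c 0.95, Cdk1 0.93, Ccna2 0.92 and Plk1 0.91, and Ccnb1 had 0.64 and Tpx2 0.24. Outside the mitotic and spindle genes the values ran from 0.84 for Mcm4, 0.76 for Mcm3, 0.75 for Ccne1 and 0.72 for Cdt1 through 0.29 for Pcna, 0.21 for Tyms and 0.07 for Cdc45 to -0.40 for Ccnd1. The list medians of the licensing and DNA synthesis genes ran from -0.40 to 0.33 and from -0.58 to 0.20.

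Of 15535 genes outside the list that were detected on all arrays, the 10 whose levels were most like the cell cycle median over the 12 livers were Asf1b (r = 0.98), Cdca5 (0.97), Rad51ap1 (0.97), Trim59 (0.96), Aspm (0.96), Tacc3 (0.96), Exo1 (0.95), Ffar2 (0.95), Kcnn4 (0.94) and Nsl1 (0.94). Aspm, a spindle pole protein, ran from -6.38 in DJ replicate 3 to -3.39 in DJ replicate 1, and Asf1b, a histone chaperone of replication, from -3.71 in Ctrl replicate 1 to -1.75 in DJ replicate 1.

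The median of the lymphocyte markers moved with the mitotic genes, but their summed level did not in every diet. The list medians of the 9 detected lymphocyte markers were -0.42, -0.89 and -0.01 in Ctrl, 0.35, -0.01 and -0.32 in RS, 1.24, -0.37 and -0.30 in DJ, and 0.94, 0.11 and -0.00 in DJ526. Over the 12 livers they followed the median of the mitotic kinases and cyclins with a Pearson r of 0.88 and a Spearman rho of 0.81. Without DJ replicate 1 the values were 0.80 and 0.75, and without the 2 farthest livers 0.66 and 0.67. The B cell marker Ms4a1 gave -2.76, -3.86 and -2.37 in Ctrl, -0.65, -1.63 and -2.68 in RS, 0.83, -2.93 and -2.16 in DJ, and 0.32, -1.26 and -2.58 in DJ526, so the same 3 livers were high. Single markers differed in how closely they followed the 31 genes: Mzb1 and Jchain, of plasma cells, had r = 0.92 and 0.89, and the B cell genes Cd79b, Ms4a1 and Cd79a had 0.86, 0.84 and 0.78. The T cell genes Cd3g, Cd3e, Cd8a and Cd4 had 0.84, 0.63, 0.42 and 0.07, Nkg7 had 0.46, and Sdc1 and Xbp1, on the plasma cell list but also made by hepatocytes, had -0.42 and -0.35. Of the 10 lymphocyte markers, 9 were detected on all 12 arrays and Cd8a on 11. Their summed level, in multiples of the 75th percentile, was 23.4, 29.8 and 38.8 in Ctrl, 31.7, 46.9 and 37.9 in RS, 42.3, 41.1 and 42.8 in DJ, and 46.0, 39.4 and 37.9 in DJ526, so that RS replicate 1 was the lowest of its diet and the DJ livers were nearly level. Bright probes weigh most in such a sum, so it need not follow the median and does not measure lymphocyte content. The median of the hepatocyte list stayed between -0.11 and 0.10 on all arrays. Its Pearson r with the median of the mitotic kinases and cyclins was -0.21 over the 12 livers and -0.56 without DJ replicate 1. The macrophage and erythroid marker lists were set against that median too. Their r was -0.08 and -0.41 over the 12 livers, and 0.25 and -0.08 without DJ replicate 1. The part of lymphocytes in the mitotic gene pattern was not tested.

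**Figure D4:**
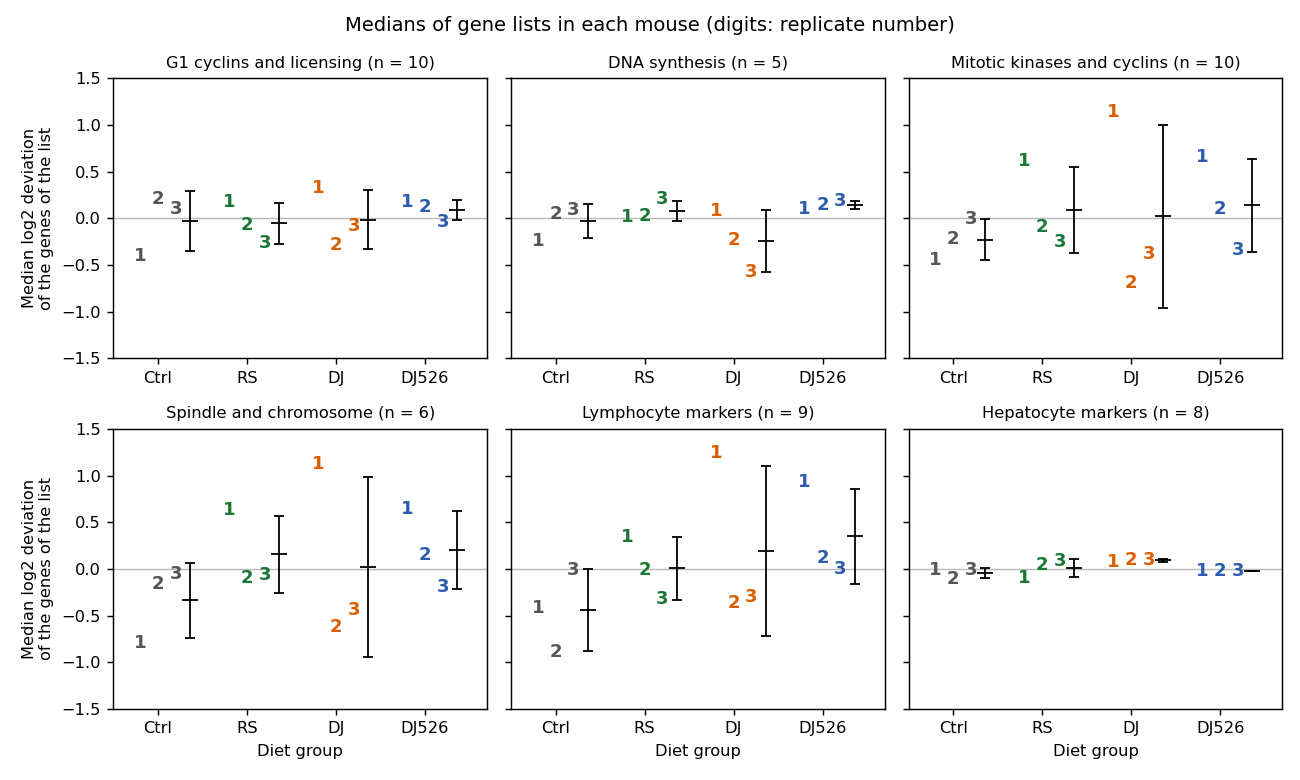
Median log2 deviation of the detected genes of each list from their means over the 12 arrays, in each liver (digits give the replicate), with mean and SD of the 3 livers of each diet. In the mitotic, spindle and lymphocyte panels replicate 1 of RS, DJ and DJ526 lies highest within its diet, up to 1.24 in DJ, while the hepatocyte panel stays between -0.11 and 0.10.

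RefSeq promoter windows of 300 bases, from 250 before to 50 after the gene start on GRCm38.p6, were at hand for 30 of the 38 genes. Windows were not at hand for Ccnd1, Ccne2, Mcm4, Ccna2, Aurkb, Foxm1 and Tpx2, and that of Kif20a is not shown. They were searched on both strands, in each case beside the share of all 27025 promoters of the same length that held the letters. A CCAAT box, spelled CCAAT, lay in 23 of 30 windows (76.7%, beside 37.9%). A CHR, the cell cycle homology region, spelled TTTGAA here, was found in 16 of 30 windows (53.3%, beside 19.4%), and that count includes its variant spelled TTCGAA. An E2F site lay in 11 of 30 windows (36.7%, beside 9.69%). For E2F the most familiar of the spellings searched was TTCCCGC, and 3 related ones were allowed. These were first TTGGCGC, which occurs in the Mcm6 promoter printed below, then the spelling TTCGCGC, and finally the spelling TTGCCGC. Motifs could overlap each other. CCAAT and CHR occurred together in 8 of 9 windows of the mitotic kinases and cyclins and in 5 of 7 of the spindle genes, beside 7.7% of all promoters. Among licensing factors 3 of 9 had the pair and 6 of 9 an E2F site, and of the 5 DNA synthesis genes 0 had a CHR and 2 an E2F site. A CCAAT box 25 to 40 bases upstream of a CHR was found in 8 of 30 windows, beside 0.722% of all promoters, a spacing range chosen after the windows were seen. A match of letters is a description and not a site in use.

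The 120 bases before the start are printed for 6 of the 8 genes with such a spaced pair and, for contrast, for Mcm6, a licensing factor with E2F letters and no CHR. They read 5′ to 3′ on the gene's strand, with the matched letters of either strand in capitals. Cdc20 is at chr4:118437344-118437463 (minus strand), Ube2c at chr2:164769809-164769928 (plus), Cdk1 at chr10:69352913-69353032 (minus), Prc1 at chr7:80294356-80294475 (plus), Top2a at chr11:99024190-99024309 (minus), Kif11 at chr19:37376262-37376381 (plus) and Mcm6 at chr1:128359706-128359825 (minus), the Prc1 stretch being that of its second RefSeq start.
Cdc20: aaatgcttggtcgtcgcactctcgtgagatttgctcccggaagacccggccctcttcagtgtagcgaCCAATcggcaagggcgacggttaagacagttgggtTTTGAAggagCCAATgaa
Ube2c: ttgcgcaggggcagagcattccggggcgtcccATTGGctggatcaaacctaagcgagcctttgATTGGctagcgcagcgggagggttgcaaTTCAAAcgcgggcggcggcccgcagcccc
Cdk1: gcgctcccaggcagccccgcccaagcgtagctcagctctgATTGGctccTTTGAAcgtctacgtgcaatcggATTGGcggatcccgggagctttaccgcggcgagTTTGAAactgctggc
Prc1: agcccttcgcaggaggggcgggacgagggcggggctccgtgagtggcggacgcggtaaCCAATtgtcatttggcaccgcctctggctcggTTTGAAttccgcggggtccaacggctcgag
Top2a: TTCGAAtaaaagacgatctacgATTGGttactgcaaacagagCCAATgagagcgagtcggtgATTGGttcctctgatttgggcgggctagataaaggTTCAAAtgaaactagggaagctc
Kif11: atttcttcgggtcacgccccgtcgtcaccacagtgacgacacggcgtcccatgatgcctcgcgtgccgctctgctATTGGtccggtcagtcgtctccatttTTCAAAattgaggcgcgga
Mcm6: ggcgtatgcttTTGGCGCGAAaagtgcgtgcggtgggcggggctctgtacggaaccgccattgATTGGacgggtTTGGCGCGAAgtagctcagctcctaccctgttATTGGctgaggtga
From the first letter of the CCAAT box to that of the CHR, the distances within 25 to 40 bases were 35 in Cdc20, 28 in Ube2c, 33 in Cdk1, 32 in Prc1, 29 and 35 in Top2a and 26 in Kif11. Cdk1 also had a pair 9 bases apart, and Top2a had pairs 9 and 10 bases apart. These Top2a pairs, and the CCAAT box of its pair at 29 bases, lie before the printed stretch. Nusap1 (r = 0.95), Birc5, Tyms, Tk1 and Ccne1 had none of the letters searched. Mcm6, which gave 0.77, 1.80 and 1.83 in Ctrl, 1.28, 0.93 and 1.01 in RS, 1.62, 0.75 and 1.16 in DJ, and 1.48, 1.33 and 1.41 in DJ526, had r = 0.62. Its DJ526 livers lay above its RS livers (0.33, SE 0.273, adjusted p = 0.986), and its 2 high Ctrl livers were the highest of all 12.

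For 9 of the 38 genes the array held more than 1 probe, and the probes of a gene did not always follow each other. Further probes of Birc5, Mki67 and Ube2c had r between 0.95 and 0.99 with the brightest. Those of Ccnb1 had 0.77 and 0.65, that of Cdc6 had 0.27, that of Ccne1 0.17 and that of Foxm1 0.16, and each of these was detected on 10 arrays or fewer. For Ccnb1 the difference of DJ from Ctrl was 0.14 by the brightest probe and -0.66 and -0.72 by the others. Tpx2 and Cdk1 had probes that diverged although they were detected on all 12 arrays. The brightest Tpx2 probe, used above, gave -4.41, -4.07 and -3.70 in RS and -3.74, -4.26 and -4.20 in DJ, besides the Ctrl and DJ526 values above. The other Tpx2 probe gave -6.62, -5.60 and -5.10 in Ctrl, -4.57, -5.39 and -6.35 in RS, -3.85, -6.48 and -6.32 in DJ, and -4.27, -5.06 and -5.71 in DJ526. That dimmer probe had r = 0.98 with the median of the detected cell cycle genes, against 0.25 for the brightest, and its Ctrl and DJ526 livers overlapped (0.76, adjusted p = 0.734). Its DJ526 livers also overlapped the DJ livers (0.54) and the RS livers (0.43). For Cdk1 the order was reversed: the brightest probe had r = 0.93, and a second one, also detected on all arrays, had r = -0.45, with its highest value, -3.49, in DJ replicate 2, where the brightest probe gave -4.86. Another Cdk1 probe was detected on 7 arrays.

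**Figure D5:**
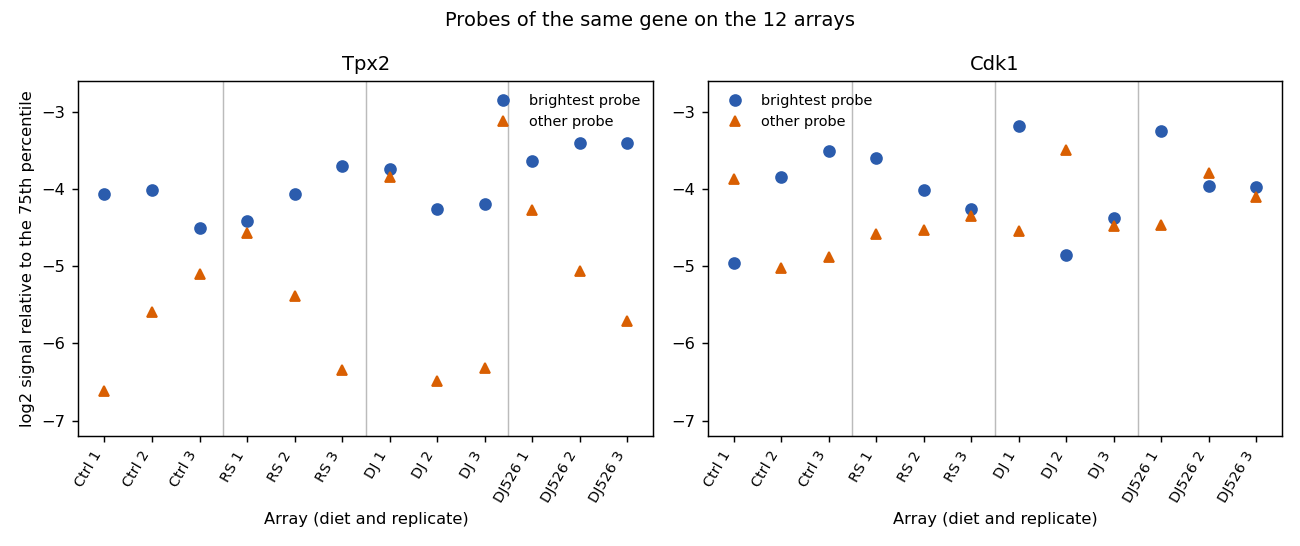
Log2 signal relative to the 75th percentile for the brightest probe (circles) and another probe (triangles) of Tpx2 and of Cdk1 on the 12 arrays. The triangles of Tpx2 run from -6.62 to -3.85 with their peak in DJ replicate 1, while its circles are highest in DJ526 replicates 2 and 3. The 2 Cdk1 probes run in opposite directions, most clearly in Ctrl replicate 1 and DJ replicate 2.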

How the data were processed

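Liver RNA labelled with Cy3 was hybridised to Agilent one-colour mouse arrays, and the authors deposited the scanner output of Feature Extraction 11.5.1.1, of which the background-subtracted intensity (processed signal) was used. A second deposited table held the authors' normalized intensity, equal to the processed signal times 0.959 to 1.08 per array for at least 99.8% of probes, and served as an alternative. The labels name Trizol for RNA extraction, whereas the methods name a column kit.

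Spots of a probe, without outlier spots, were averaged, log2 was taken and the array's 75th percentile subtracted; 68 probes lacked a value on some array. RefSeq accessions named 69.8% of 39429 probes, and the brightest probe stood for a gene. limma 3.58.1 (R 4.3.3, eBayes with trend) was fitted to all 12 arrays with 1 mean per diet, no covariate, 7 contrasts and Benjamini-Hochberg adjustment over all probes (two-sided threshold 0.05). Alternatives were the methods' t-test and Z ratio criterion (over 1.5, without its intensity condition). Others were quantile normalization, normexp (offset 50), median centring, a filter on dim probes, slide and replicate blocks, and leaving out each array. On simulated data with 200 changed probes, a log2 change of 1 was recovered in 33.5% to 44.5% of them in the 6 pairwise contrasts. For the difference of effects the share was 26.5%, and false calls numbered 2 to 6 over the 7 contrasts. The changed probes were drawn at random from all probes and varied independently. These shares therefore do not apply to the cell cycle genes, which spread more widely and varied together. Promoters were searched with Python 3.11.15, pandas 2.3.3 and numpy 2.4.6, and figures drawn with matplotlib 3.10.9.

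Deviations from diet means of same-numbered livers correlated above 0.1 in every pair only between DJ and DJ526 (0.256, 0.134 and 0.142); the labels tie the numbers to nothing else.

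The genes, role lists, marker lists and tests were chosen with earlier results of these data known. Named with values were 10 fixed genes, up to 5 genes per comparison with the largest change among those detected in both diets without overlap, the 10 most like genes and, of up to 3 such genes per further list, those the text needs, a restriction added afterwards. The value of 1 marker gene is not reported here.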

Additional observations from a re-analysis of the deposited data

How the results depend on the processing

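Across 22 limma settings 0 of the 38 cell cycle genes were called in any of the 7 comparisons, the smallest adjusted p being 0.0911. The methods' Z ratio criterion called 1 gene, Tpx2, in DJ526 against Ctrl and 1, also Tpx2, in DJ526 against RS. Under the slide block the median log2 fold changes were 1.66 (RS), 0.88 (DJ) and 1.75 (DJ526) against Ctrl. They were 0.76 for DJ526 against DJ, -0.62 for DJ against RS and -0.50 for the difference between the resveratrol effects. That fit reaches Ctrl through DJ replicate 1 alone and DJ526 through RS replicate 3 alone. Leaving out 1 array at a time gave 0 called genes and medians of 0.12 to 0.39 (RS against Ctrl), -0.23 to 0.37 (DJ against Ctrl), 0.19 to 0.45 (DJ526 against Ctrl), -0.05 to 0.49 (DJ526 against DJ), -0.04 to 0.22 (DJ526 against RS), -0.47 to 0.14 (DJ against RS) and -0.29 to 0.30 (difference between the effects, 0.30 without DJ replicate 1). With the replicate number as a block the medians were the same, 0.32 for DJ526 against Ctrl, 0 of 38 genes were called, and the calls over all probes fell to 0. Over all probes, calls in DJ526 against Ctrl, DJ and RS numbered 2, 4 and 3, and 166, 107 and 28 without RS replicate 3, 4, 14 and 8 with the filter on dim probes, 9, 27 and 3 with quantile normalization, 4, 10 and 3 with median centring, 0, 11 and 1 without the variance trend, and 0 in each with only the compared groups or the methods' t-test. With the slide block they were 0 for DJ526 against Ctrl, 40 against RS, 8 for DJ against Ctrl, 1 for RS against Ctrl and 17 for the difference between the effects; the cause was not tested. Signal over background limits Bub1, Cdc6, Kif11 and Top2a in some livers and Aurkb, Ccne2 and Cenpf in all.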
